A study of Mus musculus with 26 samples.

Results

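The transcripts described here are those of the glucocorticoid receptor Nr3c1, the mineralocorticoid receptor Nr3c2, the steroid enzyme Hsd11b1 and 7 target genes of the receptor (Fkbp5, Tsc22d3, Sgk1, Zbtb16, Klf9, Ddit4 and Errfi1) in mouse choroid plexus (ChP). The 10 genes were chosen by symbol. All 10 were found among the 55416 genes of the table, and all 10 were among the 13697 genes that reached a mean of 1 CPM (counts scaled to library size by TMM) in both main groups and were tested.

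RNA was sequenced from the ChP of the 4th ventricle of adult C57Bl6J mice that had received sham surgery (Ctrl, n = 12) or a surgical lesion of the suprachiasmatic nuclei (SCNx, n = 12). Both groups were housed in LD12:12 and then kept in constant darkness. From circadian time (CT) 0, when the lights would have come on, to CT44, 1 mouse of each group was sampled every 4 h. The SCNx mice had no detectable locomotor rhythm in darkness, so CT states only clock time for them. With 1 mouse per time, rhythms that are lost and rhythms that differ in phase between SCNx mice cannot be told apart. The third group was 1 mouse at ZT7 and 1 at ZT18 of the genotype FoxJ1-ERT2-Cre+/-; Bmal1fl/fl (KO), fed tamoxifen and kept in a light-dark cycle, in which Cre acts in cells that express Foxj1, such as those bearing motile cilia. The KO group held no mice without Cre, and its tissue, taken from frozen sections by laser capture, was sequenced with another kit, so its levels were not set against those of Ctrl or SCNx.

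In nocturnal mice the adrenal cortex releases corticosterone in a daily surge that is timed by the suprachiasmatic nuclei (SCN) and comes before the active phase. In the cell the hormone binds its receptor GR, which chaperones hold ready in the cytoplasm, and the loaded receptor enters the nucleus and raises the transcription of its target genes. The ChP, the epithelium that secretes the cerebrospinal fluid, has a circadian clock of its own and is reached by hormones of the blood.

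The libraries of Ctrl held 38751162 to 47335226 counts and those of SCNx 41807000 to 49527614, whereas the KO libraries held 17425176 and 18059213. All 10 markers of ChP epithelium, such as Ttr and Kcnj13, were detected in every library. Ctrl at CT16 and SCNx at CT0 also held transcripts of hepatocytes, with a summed level of 8 markers of 1982 and 11008 CPM against at most 28.9 CPM in the other Ctrl and 11.1 CPM in the other SCNx libraries. Within these groups, Ctrl at CT4 and SCNx at CT32 held the most neuronal RNA, with a summed level of 340 and 421 CPM for 8 markers, and their astrocyte markers summed to 742 and 726 CPM. The KO libraries of ZT7 and ZT18 held 268 and 353 CPM of the neuron markers and 748 and 851 CPM of the astrocyte markers. SCNx at CT44 held the most blood RNA, with 6642 CPM for 5 markers against at most 1456 CPM in the other SCNx libraries. It was also the lowest SCNx library for Tsc22d3, Nr3c2, Zbtb16, Klf9 and Errfi1, whose lowest values among the other 11 were 18.9, 18.8, 0.643, 86.4 and 8.63 CPM. Ctrl at CT24, with only 314 CPM of the blood markers, was likewise the lowest Ctrl library for Nr3c1, Tsc22d3, Sgk1, Zbtb16 and Klf9. The share of all tested genes that were lowest in these libraries was not counted, and a part of blood RNA was not tested.

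Of the 7 target genes 4 had a daily rhythm in Ctrl, and none had one that passed the test in SCNx. In Ctrl, 4 of the 10 genes, Fkbp5, Tsc22d3, Sgk1 and Klf9, passed the test for a 24 h rhythm, as did 10.7% of all tested genes. In SCNx 0 of the 10 passed (0% of all tested genes), and the rhythm differed between the groups for 2 of the 10, Fkbp5 and Tsc22d3, beside 2.12% of all tested genes. All of these calls come from a 24 h cosine curve per group, tested by quasi-likelihood in edgeR. The p-values were adjusted after Benjamini and Hochberg over all tested genes, at a threshold of 0.05. Amplitudes and peaks over both cycles are those of this fit. The standard errors (SE) of amplitudes and peaks come from a separate least-squares fit of log2 CPM in each group. They are therefore not the errors that the test used. At an unadjusted p under 0.05, 8 of the 10 had a rhythm in Ctrl (24.8% of all tested genes) and 5 in SCNx (14.8%), and 7 differed between the groups (15.1%). Without a filter on low counts, and separately with DESeq2, 1 of the 10, Hsd11b1, was called rhythmic in SCNx. These settings called 1384 and 432 of all genes there. The highest SCNx library of Hsd11b1, CT0 with 73.7 CPM, is the one with hepatocyte transcripts. The study itself named Tsc22d3 as a marker of GR signalling from these same mice and plotted some of the other targets, so their rhythms are no independent evidence of it.

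**Figure D1:**
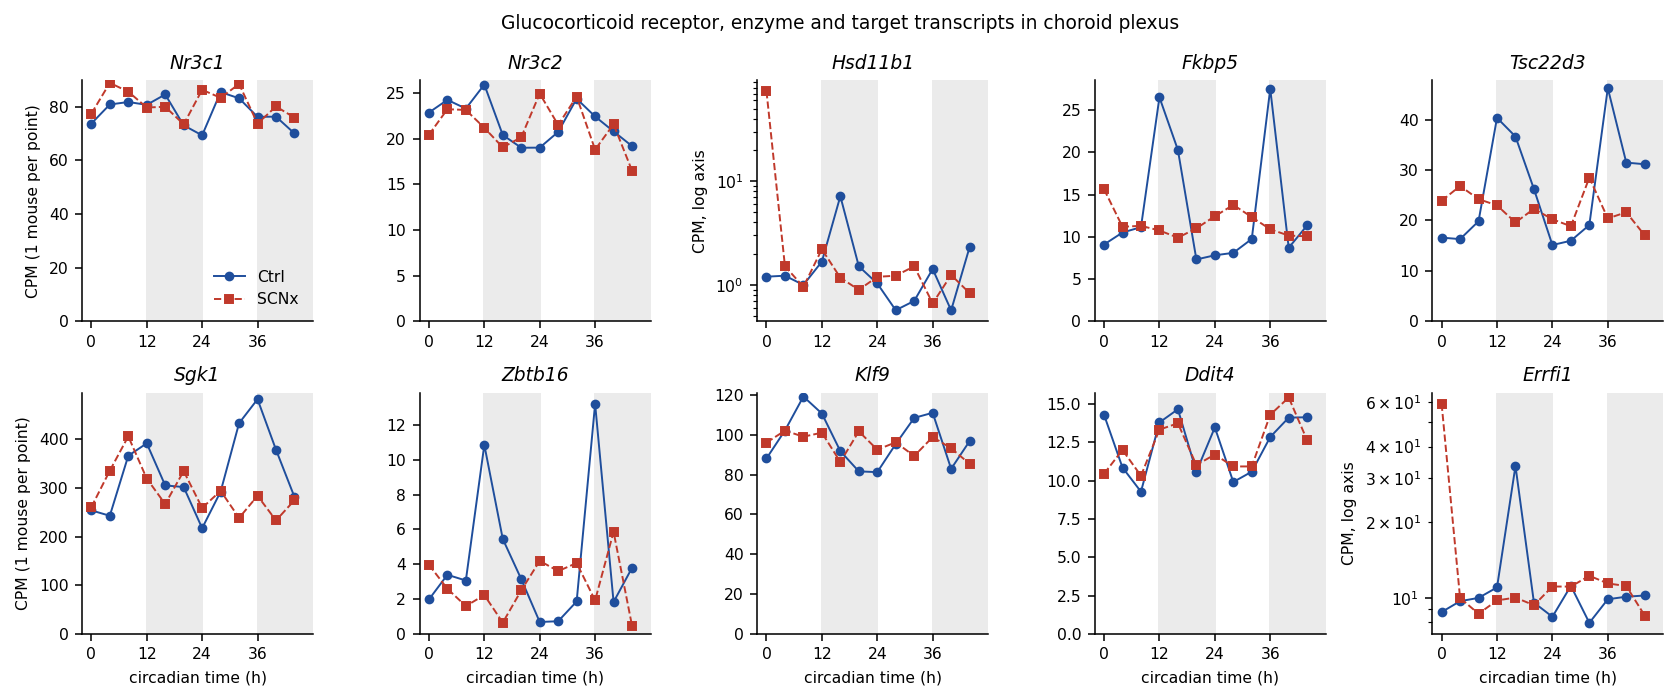
Level of the 10 genes in CPM (vertical axes, logarithmic for Hsd11b1 and Errfi1) against circadian time in hours, with 1 mouse per point, Ctrl as blue circles, SCNx as red squares and the subjective night shaded. In Ctrl, Fkbp5, Tsc22d3, Sgk1 and Zbtb16 are highest at CT12 and again at CT36, and in SCNx these peaks are not seen, whereas Hsd11b1 and Errfi1 each have a single high library per group.

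The receptor genes varied less than Fkbp5 and Tsc22d3. Each had an unadjusted p under 0.05 for a rhythm in both groups in edgeR's test, beside 24.8% of all tested genes in Ctrl and 14.8% in SCNx. Nr3c1, which encodes GR, lay between 69.3 CPM at CT24 and 85.4 CPM at CT28 in Ctrl, with a median of 78.5 CPM, and between 73.4 and 88.9 CPM in SCNx, with a median of 80.0 CPM. The ranges of the groups overlapped over most of their length. Its fitted curve had an amplitude of 0.10 ± 0.03 (SE) on the log2 scale in Ctrl and of 0.10 ± 0.03 in SCNx, a fold of 1.15 and 1.14 from trough to peak, and passed the test in neither group (adjusted p = 0.106 and 0.255). Without Ctrl CT16 the rhythm of Nr3c1 in Ctrl passed, with an adjusted p of 0.0374 and an amplitude of 0.12. The level of Nr3c1 in SCNx against Ctrl differed by a log2 value of 0.06 ± 0.04 (SE, adjusted p = 0.672).

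Nr3c2 encodes the mineralocorticoid receptor, which binds corticosterone as well as aldosterone. It lay between 19.0 and 25.9 CPM in Ctrl (median 21.6 CPM) and between 16.5 and 24.9 CPM in SCNx (median 21.4 CPM). Neither group stood higher. Its log2 amplitudes were 0.16 ± 0.04 and 0.15 ± 0.06 (SE), and neither rhythm passed (adjusted p = 0.0985 and 0.264). The fitted peaks of both receptor genes fell in the subjective day in Ctrl, at CT8.95 for Nr3c1 and CT8.55 for Nr3c2, ahead of the peaks of Fkbp5 and Tsc22d3.

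Tsc22d3, also known as GILZ, encodes a leucine zipper protein that carries part of the anti-inflammatory action of glucocorticoids. In Ctrl it was lowest at CT24 with 15.1 CPM, had a median of 23 CPM and was highest at CT36 with 46.3 CPM and at CT12 with 40.4 CPM. The level stayed high at CT16 (36.6 CPM), and at the daytime points CT4, CT8, CT28 and CT32 it was 16.3, 19.8, 16.0 and 19.1 CPM. The amplitude was 0.75 ± 0.09 (SE) on the log2 scale, a fold of 2.82 from trough to peak, and the fitted peak fell at 14.6 ± 0.465 h (SE, adjusted p = 1.87e-05). Fitted to each cycle alone, the amplitudes were 0.72 and 0.76 and the peaks lay at 14.6 and 14.7 h, so the waves of both days were close in size and time.

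In SCNx, Tsc22d3 stayed between 17 and 28.5 CPM with a median of 22 CPM, so that its whole range lay inside that of Ctrl. The amplitude was 0.17 ± 0.08 on the log2 scale (adjusted p = 0.445). The rhythms of the groups differed with an adjusted p of 0.00115 in edgeR's test of the difference, and this call was kept in each of the 35 alternative analyses, with a highest adjusted p of 0.0328. The highest SCNx value, 28.5 CPM at CT32, came from the library with the most neuronal RNA, and without it the adjusted p of a rhythm in SCNx was 0.717.

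Fkbp5 encodes a co-chaperone that GR induces and that in turn lowers the affinity of the receptor for hormone. In Ctrl the high values fell in few libraries. It stood at 26.5 CPM at CT12, 20.3 CPM at CT16 and 27.5 CPM at CT36, and the other 9 libraries lay between 7.32 CPM at CT20 and 11.4 CPM at CT44, with a median over all 12 of 10.1 CPM. The mean of CT12 and CT36 was 2.87 times the median of the other 10 libraries. The amplitude was 0.74 ± 0.20 (SE, log2) with a peak at 12.6 ± 1.13 h (adjusted p = 0.00268), and the peaks of the separate cycles lay at 12.5 and 12.6 h. The CT16 library is the Ctrl library with hepatocyte RNA, and 24 h later, at CT40, Fkbp5 was at 8.70 CPM.

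In SCNx, Fkbp5 lay between 9.89 CPM at CT16 and 15.6 CPM at CT0, with a median of 11.1 CPM, and the mean of CT12 and CT36 was 0.962 times the median of the other 10. The SCNx mice of these times did not stand above the others. The amplitude was 0.21 ± 0.06 (log2, adjusted p = 0.619), and its highest library, CT0, is the one with hepatocyte RNA. The rhythm differed between the groups (adjusted p = 0.0281), but this call was lost with an adjusted p of 0.0525 to 0.0772 when Ctrl CT12, Ctrl CT24, Ctrl CT36, SCNx CT0, SCNx CT12 or SCNx CT16 was left out. Without Ctrl CT16 and SCNx CT0 together it was 0.0972.

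Sgk1 encodes a kinase that raises sodium transport in epithelia and responds to both steroid receptors. In Ctrl it ranged from 217 CPM at CT24 over a median of 304 CPM to 483 CPM at CT36, and in the first cycle it was highest at CT12 with 391.8 CPM. It was already high 4 h before each of these peaks, with 366 CPM at CT8 and 433 CPM at CT32, when Fkbp5 was still low. The amplitude was 0.43 ± 0.07 (SE, log2), a fold of 1.82 from trough to peak at 11.8 ± 0.61 h (adjusted p = 0.00403). In SCNx it ranged from 233 to 406 CPM with a median of 279 CPM, which overlapped with Ctrl, and the amplitude was 0.12 ± 0.10 (adjusted p = 0.626). The difference of the rhythms did not pass (adjusted p = 0.134). It passed with DESeq2 (0.0398) and without SCNx CT8 (0.0442), the highest SCNx library.

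Klf9 encodes a transcription factor that GR induces directly in many tissues. Its highest values were 119 CPM at CT8, 111 CPM at CT12 and 109 and 111 CPM at CT32 and CT36, late in the subjective day and at dusk, and it was lowest at CT24 with 81.3 CPM. At CT28 and CT44 it stood at 95.4 and 96.9 CPM. The wave was small. Its amplitude was 0.22 ± 0.04 (SE, log2), a fold of 1.36, with a peak at 9.10 ± 0.757 h (adjusted p = 0.00319), hours before that of Tsc22d3. In SCNx the level stayed between 85.4 and 102 CPM, with a CV of 6.13% against 13.2% in Ctrl, and the amplitude was 0.05 ± 0.04 (adjusted p = 0.742). The difference of the rhythms did not pass (adjusted p = 0.184), and passed only without Ctrl CT44 (0.0499).

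Zbtb16, also known as PLZF, encodes a zinc finger repressor that is strongly induced by steroids in other tissues. In Ctrl it was highest at CT36 with 13.2 CPM and at CT12 with 10.9 CPM, the next library was CT16 with 5.45 CPM, and the lowest was CT24 with 0.680 CPM. The mean of CT12 and CT36 was 4.78 times the median of the other 10 in Ctrl and 0.670 times in SCNx. The time course thus had the shape of that of Fkbp5 at a low level. The log2 amplitude was 1.28 ± 0.41 (SE) in Ctrl and did not pass (adjusted p = 0.0717), although it passed in 7 of 34 alternatives, among them DESeq2 (0.0166) and the fits without Ctrl CT4 (0.0397), Ctrl CT40 (0.0437), SCNx CT40 (0.0409) or SCNx CT44 (0.0445). In SCNx the range was 0.462 to 5.86 CPM with a median of 2.54 CPM. The amplitude there was 0.25 ± 0.45 (SE, adjusted p = 0.886), and the difference did not pass (adjusted p = 0.275).

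Of the 10 genes, 3 (Fkbp5, Tsc22d3 and Zbtb16) were higher in both Ctrl libraries of CT12 and CT36 than in any other Ctrl library, as were 3.79% of all tested genes. In SCNx 0 of the 10 and 0.913% of all tested genes did so. These times are dusk of the former light-dark cycle in consecutive days, and each rests on 1 mouse. They were picked as peak times of several of the 10 genes in Ctrl. The share of all tested genes is therefore no fair measure for the 10. The ratios of CT12 and CT36 given for Fkbp5 and Zbtb16 have the same limit. In bulk tissue, fewer cells of a type and less RNA per cell cannot be told apart.

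Promoter windows, from 250 bases before to 50 bases after a gene's start, were held for 8 of the 10 genes in the RefSeq table of GRCm38.p6, which lists several starts for some genes, 16 windows in all, and none for Nr3c1 and Zbtb16. GR binds DNA as a pair of proteins on hexamers close to AGAACA that face each other with 3 bases between them, and the clock proteins CLOCK and BMAL1 bind the E-box CACGTG. Both strands were searched. The hexamer was in 4 of the 16 windows (2 of 8 genes, Sgk1 and Tsc22d3) and in 19% of all 32851 windows of the table. The 2 facing hexamers were in 1 window of Sgk1 and in 0.00913% of all windows. The E-box was in 2 windows (Fkbp5 and Sgk1) and in 7.15% of all, and the D-box TTATGTAA was in 0 of the 16 and in 0.938% of all. The stretches below are shown because they hold the facing hexamers and the E-box beside the start of 2 genes with a rhythm in Ctrl, and the capitals mark these letters.
Sgk1, chr10:21993671-21993745, plus strand, hexamers from 189 bases before the start: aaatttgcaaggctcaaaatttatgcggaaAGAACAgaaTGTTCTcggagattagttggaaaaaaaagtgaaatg
Fkbp5, chr17:28486283-28486348, minus strand, E-box from 169 bases before the start: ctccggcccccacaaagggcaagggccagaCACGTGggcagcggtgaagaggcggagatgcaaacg
The E-box of Sgk1 lies in the same window, 246 bases before the start, and shares letters with a further hexamer 242 bases before it. The counts are per gene and do not show which start was used, and a match of letters is no evidence that a factor bound there.

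Ddit4, also known as REDD1, encodes an inhibitor of mTORC1 that responds to glucocorticoids and to stress. In Ctrl it lay between 9.28 CPM at CT8 and 14.7 CPM at CT16 with a median of 13.2 CPM, and in SCNx between 10.3 and 15.4 CPM with a median of 11.9 CPM. Both groups had their lowest value at CT8. The log2 amplitudes were 0.23 ± 0.08 in Ctrl and 0.20 ± 0.05 in SCNx (SE), with peaks at 18.0 ± 1.33 h and 15.1 ± 1.03 h, and neither passed (adjusted p = 0.0686 and 0.234). In Ctrl the rhythm passed with DESeq2 (0.0382) and without Ctrl CT0 (0.0420) or Ctrl CT20 (0.00566). The test of the difference between the groups did not pass (adjusted p = 0.567).

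Hsd11b1, the reductase that turns inactive 11-dehydrocorticosterone back into corticosterone, is abundant in liver. In Ctrl it lay between 0.567 and 2.31 CPM in 11 libraries and at 7.16 CPM in the CT16 library. In SCNx the other 11 libraries lay between 0.662 and 2.20 CPM and CT0 at 73.7 CPM. These are the libraries with hepatocyte transcripts. They stood 5.97 and 61.7 times above the median of the other 11 of their group. Each of the 8 hepatocyte markers was higher in both than in any other Ctrl or SCNx library. The level in SCNx against Ctrl had a log2 value of 2.10 ± 0.81 (SE, adjusted p = 0.458) with all libraries and of 0.02 (adjusted p = 0.978) without those of CT16 and CT0. The log2 amplitude in SCNx was 2.19 with all libraries and 0.26 without them. The log2 amplitude in Ctrl was 1.02 (adjusted p = 0.503) with all libraries, 0.44 (0.899) without Ctrl CT16 and 0.45 (0.420) without both. Without SCNx CT0 alone the rhythm in Ctrl passed with an adjusted p of 0.0463, with Ctrl CT16 still in the fit.

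Errfi1 encodes an inhibitor of EGF receptor signalling and is also abundant in liver. It stood at 33.5 CPM in Ctrl at CT16 against 7.94 to 11.1 CPM in the other Ctrl libraries, and at 59.3 CPM in SCNx at CT0 against 8.48 to 12.2 CPM. These libraries were 3.40 and 5.92 times above the median of the other 11. Without both, the log2 amplitude was 0.06 in Ctrl and 0.08 in SCNx, against 0.46 ± 0.21 and 0.67 ± 0.31 (SE) with them, and no test of Errfi1 passed either way. Fkbp5 at SCNx CT0 was 1.42 times the median of the other 11, and at Ctrl CT16 it was 2.08 times, inside the range of the other libraries.

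**Figure D2:**
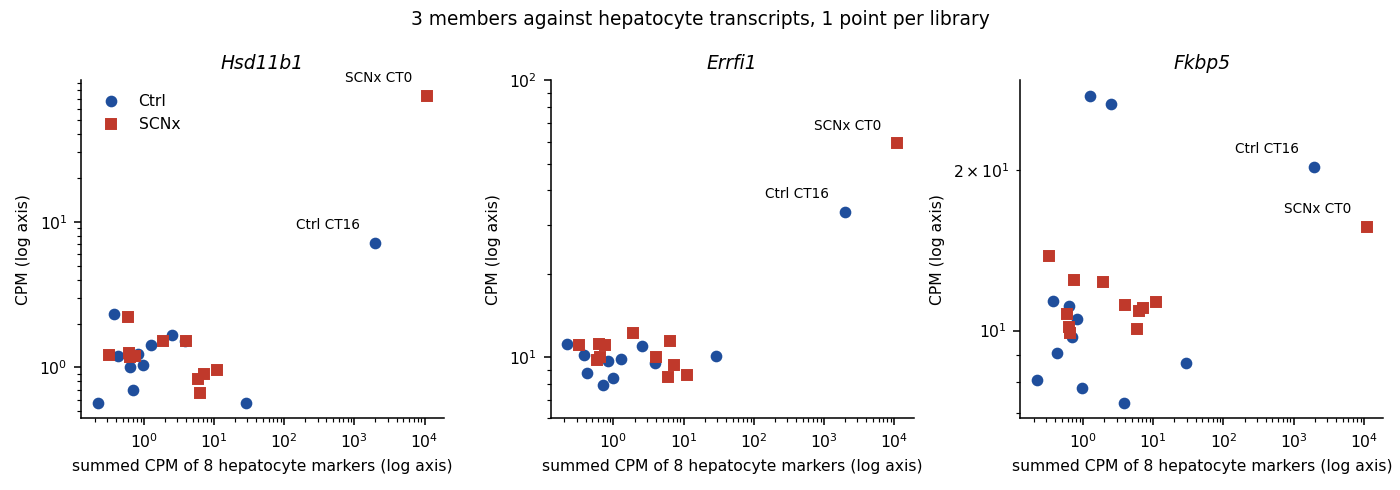
Level of Hsd11b1, Errfi1 and Fkbp5 in CPM against the summed CPM of 8 hepatocyte markers, both on logarithmic axes, with 1 point per library of Ctrl and SCNx. Hsd11b1 and Errfi1 are high in the libraries at 1982 and 11008 CPM of hepatocyte markers and low in all others, and Fkbp5 is highest in Ctrl libraries that hold few hepatocyte transcripts.

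The amplitude was lower in SCNx than in Ctrl for 8 of the 10 genes, and for 55.3% of all tested genes. The exceptions were Hsd11b1 and Errfi1. The median log2 amplitude of the 10 was 0.45 in Ctrl and 0.19 in SCNx, and that of all tested genes was 0.11 and 0.09. Leaving these aside, the order of the log2 amplitudes in Ctrl was Zbtb16 at 1.28, Tsc22d3 and Fkbp5 at 0.75 and 0.74, Sgk1 at 0.43, and Ddit4, Klf9, Nr3c2 and Nr3c1 at 0.23 to 0.10. Tsc22d3 and Fkbp5 did not differ beyond their standard errors, and neither did Ddit4 and Klf9.

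**Figure D3:**
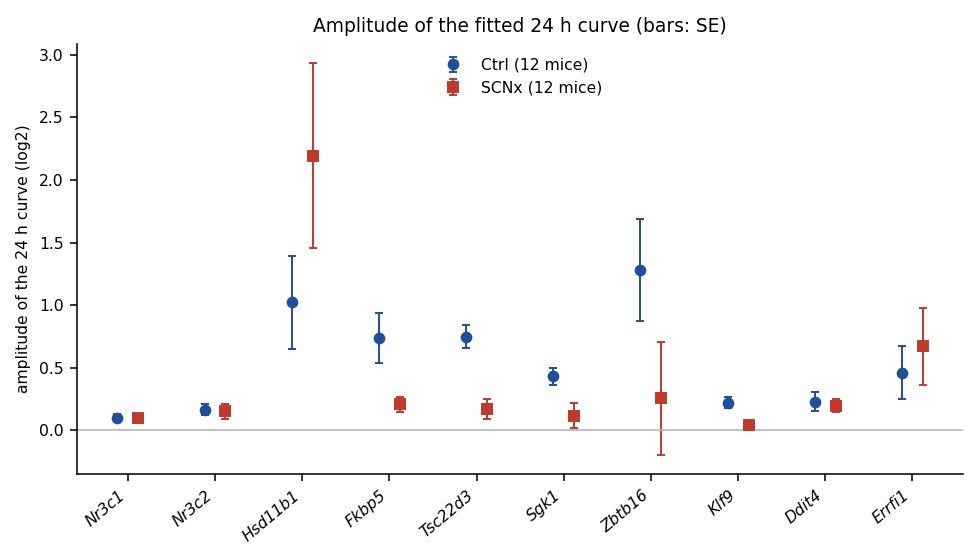
Amplitude of the fitted 24 h curve on the log2 scale for each of the 10 genes in Ctrl and SCNx. Bars show the standard error from a separate fit to the 12 mice of each group. Fkbp5, Tsc22d3, Sgk1, Klf9 and Zbtb16 lie lower in SCNx, whereas the bars of Nr3c1, Nr3c2 and Ddit4 overlap between the groups. The bars of Zbtb16, Hsd11b1 and Errfi1 are wide.

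With all times pooled, 0 of the 10 genes differed in level between SCNx and Ctrl, and neither did any other tested gene (0%, by quasi-likelihood in edgeR after the same adjustment). At an unadjusted p under 0.05, 1 of the 10, Hsd11b1, and 9.37% of all tested genes passed. DESeq2 called 14 genes, none of them among the 10. Fkbp5 averaged 13.2 ± 7.30 CPM over the 12 Ctrl mice and 11.6 ± 1.69 CPM over the 12 SCNx mice (SD), a log2 difference of -0.18 ± 0.21 (SE), and those of Tsc22d3 were 26.3 ± 10.8 and 22.2 ± 3.31 CPM, a log2 difference of -0.24 ± 0.17. The mean level moved little while the spread over the day narrowed, with a CV of Fkbp5 of 55.4% in Ctrl and 14.6% in SCNx and of Tsc22d3 of 41.0% and 14.9%. Sgk1 had 329 ± 81.3 and 292 ± 49.5 CPM, with CVs of 24.7% and 16.9%.

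Night (CT16, CT20, CT40 and CT44) was set against day (CT4, CT8, CT28 and CT32) to place Ctrl and SCNx beside the KO times. In Ctrl, 1 of the 10 genes, Ddit4, rose at night (1.94% of all tested genes rose) and 0 fell (1.88% fell). Ddit4 had 10.2 ± 0.707 CPM in the 4 day and 13.4 ± 1.88 CPM in the 4 night libraries (SD), a log2 difference of 0.40 ± 0.11 (SE, adjusted p = 0.0465 in edgeR's test). The windows overlapped by the night library of CT20 at 10.6 CPM. At an unadjusted p under 0.05, 5 of the 10 genes and 19.6% of all tested genes differed between night and day in Ctrl. The call of Ddit4 did not hold, with an adjusted p of 0.0520 to 0.139, without Ctrl CT4, CT8, CT16, CT28, CT32, CT40 or CT44 or without SCNx CT4, CT16, CT28 or CT44.

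Tsc22d3 had 17.8 ± 1.95 CPM by day and 31.4 ± 4.25 CPM at night in Ctrl (SD, n = 4 each) with no overlap of the windows, a log2 difference of 0.82 ± 0.25 (SE) that did not pass in edgeR's test (adjusted p = 0.0785). In SCNx its difference was -0.29 ± 0.25 (adjusted p = 0.617), and the difference between the groups was -1.11 ± 0.36 (adjusted p = 0.590). Fkbp5 and Sgk1, with peaks at CT12 and CT36 outside both windows, had night-day differences of 0.27 ± 0.33 and -0.07 in Ctrl. In SCNx 0 of the 10 genes rose or fell at night (0% and 0% of all tested genes). At an unadjusted p under 0.05, 3 of the 10 and 13.1% of all tested genes differed there. Nr3c1 in SCNx had 86.5 ± 2.61 CPM by day and 77.3 ± 3.25 CPM at night (SD, n = 4 each) without overlap, which did not pass edgeR's test (adjusted p = 0.333). Fkbp5 in SCNx had 12.1 ± 1.20 and 10.3 ± 0.496 CPM, also without overlap, and did not pass either (adjusted p = 0.759). How many of all tested genes had windows without overlap was not counted. The lack of overlap of Tsc22d3, Nr3c1 and Fkbp5 is therefore a description and no evidence of a difference. The night-day difference itself differed between the groups for 0 of the 10 and for 0.0511% of all tested genes, and at an unadjusted p under 0.05 for 1 of the 10, Tsc22d3, and 7.48% of all.

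In KO, the targeted gene Arntl (Bmal1) had 10.6 CPM at ZT7 and 9.36 CPM at ZT18, a ratio of 0.886 with a 95% interval of 0.715 to 1.10. Counts per gene also hold reads outside a deleted exon and from cells without Cre, so this checks the deletion little. The groups have 1 mouse each, so there is no test, and the intervals of ratios (exact binomial) cover counting error only. Of the 10 genes, 1 was past a 2-fold change between the times, as were 2.88% of the 13220 genes compared. That gene was Hsd11b1, with 30 counts at ZT7 and 13 at ZT18, a ratio of 0.418 (0.200 to 0.826).

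Among the targets, Tsc22d3 had 508 counts at ZT7 and 655 at ZT18, a ratio of 1.24 (1.11 to 1.40), and Fkbp5 155 and 215, a ratio of 1.34 (1.08 to 1.66). Klf9 had a ratio of 1.19 (1.11 to 1.27), and Errfi1 one of 1.38 (1.16 to 1.65). The intervals of these 4 lay above 1. Markers of cell types outside the epithelium were also higher in the night mouse, and their part in these ratios was not tested. The ratio of the summed levels was 1.32 for neurons, 1.45 for oligodendrocytes, 1.14 for astrocytes, 1.35 for fibroblasts and 1.29 for endothelium, against 0.951 for ChP epithelium. The intervals of Ddit4 (1.26, 0.996 to 1.61), Zbtb16 (1.14, 0.919 to 1.42), Sgk1 (0.983, 0.935 to 1.03), Nr3c2 (1.07, 0.944 to 1.21) and Nr3c1 (0.972, 0.905 to 1.04) included a ratio of 1. How much 2 mice of the same time would differ was not measured.

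**Figure D4:**
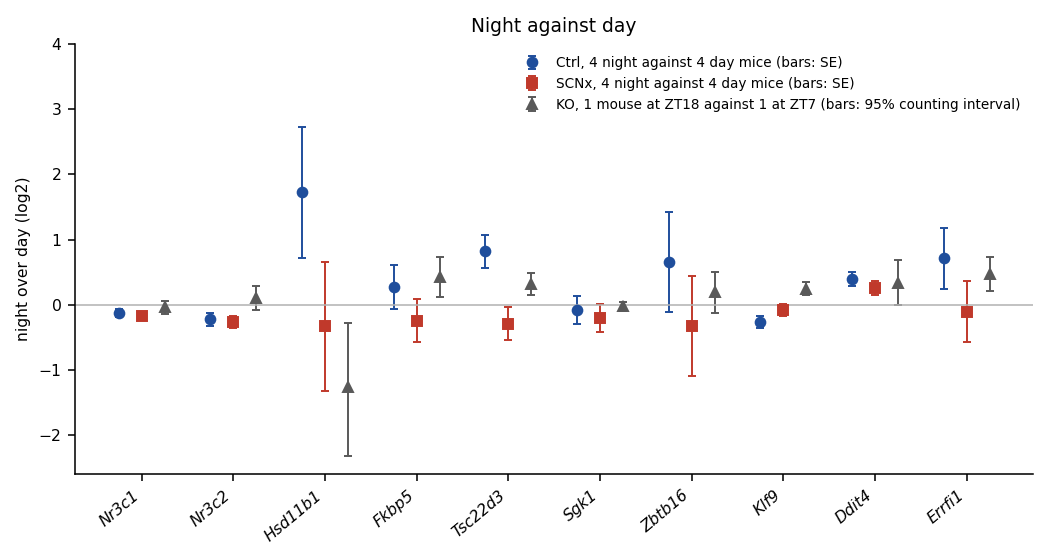
Night-over-day difference on the log2 scale for the 10 genes in Ctrl and SCNx (4 night against 4 day libraries, bars for the standard error) and in KO (1 mouse at ZT18 against 1 at ZT7, bars for the 95% counting interval). Tsc22d3 is at 0.82 in Ctrl and -0.29 in SCNx, Ddit4 is above 0 in both, and Nr3c1 and Nr3c2 are below 0 in both.

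The time courses of the targets were set beside those of all tested genes by Pearson's r of log2 CPM over the 12 Ctrl libraries, as a description. The libraries share the sampling times, so any genes that peak together correlate. The genes named as most like a target were picked by their r in Ctrl alone. That choice favours a lower r in SCNx, so a drop there is no evidence of a change. The genes most like Fkbp5 were Wnt5b, a WNT ligand (r = 0.93), Aff1, a factor of transcription elongation (0.92), Gm21955 (0.89), Art3 (0.89) and Cibar2 (0.89). In SCNx, over 12 libraries, their r with Fkbp5 was -0.01, 0.12, 0.43, 0.09 and 0.09. Zbtb16 followed at rank 12 of 13696 (r = 0.87 in Ctrl and 0.55 in SCNx) and Tsc22d3 at rank 70 (0.78 and 0.25). Klf9 and Sgk1 had r = 0.57 and 0.55 with Fkbp5 in Ctrl.

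The genes most like Tsc22d3 in Ctrl were Cys1, which encodes the ciliary protein cystin (0.95), Ap3m2, a subunit of an adaptor complex of vesicles (0.94), Peli2 (0.93), Plin4, a lipid droplet protein (0.92), and Cntfr, the receptor of ciliary neurotrophic factor (0.92). Their r in SCNx, with the same limit of a choice made in Ctrl, was 0.45, 0.42, 0.62, -0.45 and 0.63. The receptor genes did not follow this pattern, with r of -0.01 for Nr3c1 and 0.02 for Nr3c2 with Tsc22d3 in Ctrl, and of 0.52 and 0.67 in SCNx.

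Around the 10 genes stand 61 genes in 5 lists, of which 52 were tested. Of the other targets of the receptor, 7 of 24 tested (27 listed) had a rhythm in Ctrl, 0 in SCNx, and 3 differed between the groups, beside 10.7%, 0% and 2.12% of all tested genes. Per1, a clock gene with a textbook response to glucocorticoids, had a mean of 42.4 CPM (SD 18.4) in the 12 Ctrl mice and of 39.9 CPM (SD 6.64) in the 12 SCNx mice. Its log2 amplitude was 0.75 in Ctrl with a peak at 13.7 h and 0.21 in SCNx (adjusted p of the difference 0.0198), close in size and time to Tsc22d3. Plin4 had 0.53 in Ctrl, with a peak at 15.2 h, and 0.32 in SCNx (difference 0.0268). Cdkn1a, the cell cycle inhibitor p21, had 0.60 and 0.08 (difference 0.00723) but peaked at 23.3 h, when Fkbp5 was low. Pik3ip1 (0.31, peak at 10.4 h) and Glul, the glutamine synthetase (0.17, peak at 20.9 h), also passed in Ctrl (adjusted p = 0.00835 and 0.0159). Pdk4, which holds back glucose oxidation, was the only one of the list called higher at night in Ctrl (log2 difference 0.48 ± 0.13, SE, adjusted p = 0.0465). The list's median amplitude was 0.28 in Ctrl and 0.20 in SCNx. Its largest amplitudes were those of Tat and Pck1, 1.60 and 3.55 in Ctrl and 2.27 and 4.33 in SCNx. Neither gene passed in either group. Their peaks lay at 15.4 and 16.1 h in Ctrl and at 23.9 and 0.78 h in SCNx. These times are near the libraries with hepatocyte RNA, Ctrl CT16 and SCNx CT0, whose part in these amplitudes was not tested.

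The chaperones that hold and fold GR had a rhythm in Ctrl in 6 of 10, in SCNx in 0 of 10, and differed between the groups in 2 of 10, beside the same 10.7%, 0% and 2.12% of all tested genes. Hsp90aa1, which encodes an HSP90 isoform, had a log2 amplitude of 0.42 with a peak at 20.5 h in Ctrl (adjusted p = 0.000123) and of 0.17 in SCNx (difference 0.0404). Fkbp4, the co-chaperone that counters Fkbp5 at the receptor, had 0.28 with a peak at 20.3 h (adjusted p = 2.72e-05) and 0.16 (difference 0.0372). Stip1, Hspa8 and Hsp90ab1 had amplitudes of 0.29, 0.30 and 0.21 and peaks at 18.9, 17.8 and 19.7 h. At night in Ctrl 6 of the 10 rose, beside 1.94% of all tested genes. In SCNx 0 passed after adjustment, and 7 at an unadjusted p under 0.05, beside 13.1% of all tested genes. Their peaks in Ctrl were hours later than those of Fkbp5 and Tsc22d3.

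The remaining lists had 1 gene each with a rhythm in Ctrl, and with 10.7% of all tested genes called there such counts say nothing particular about a list. Of 7 genes of steroid supply and export 3 were expressed enough to be tested, and 1, Srd5a1, which encodes a 5α-reductase, had a rhythm in Ctrl (log2 amplitude 0.24, peak at 8.21 h, adjusted p = 0.0434). Of 10 coregulators 1 had a rhythm in Ctrl, Hexim1, an inhibitor of transcription elongation (0.19, peak at 20.6 h, adjusted p = 0.0326). Of 5 tested effectors of the mineralocorticoid receptor (7 listed) 1 passed, Tsc22d1, a relative of Tsc22d3 (0.14, peak at 9.10 h, adjusted p = 0.0245). No gene of these 3 lists had a rhythm in SCNx or a difference between the groups, and at an unadjusted p under 0.05, 1 of the 3, 1 of the 10 and 0 of the 5 differed in rhythm, beside 15.1% of all tested genes. None of the 52 tested genes differed in level.

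**Figure D5:**
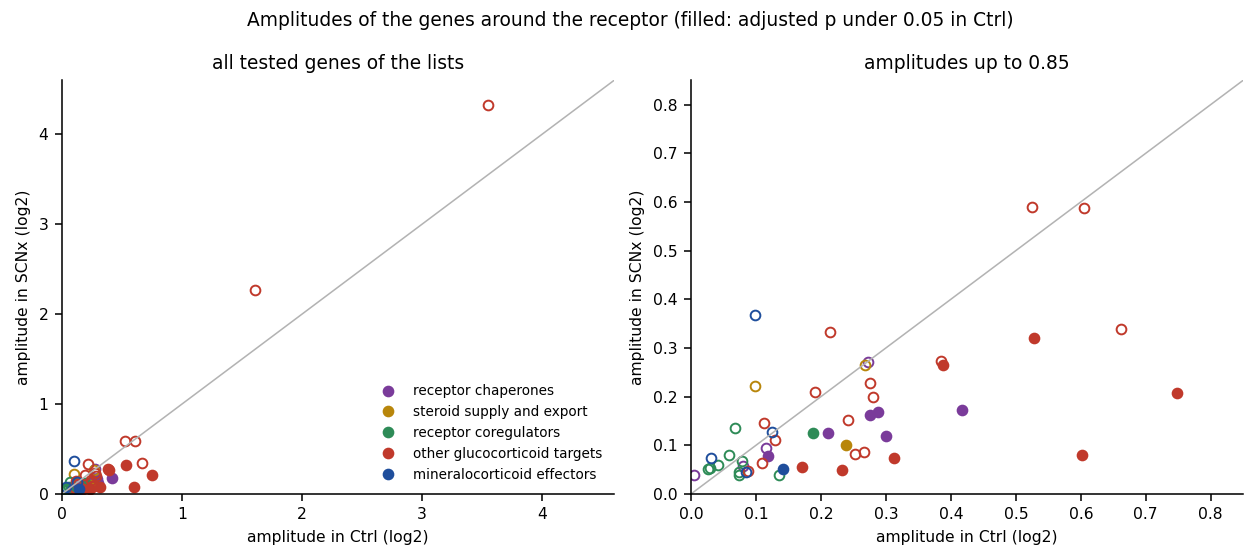
Log2 amplitude in SCNx against that in Ctrl for the tested genes of the 5 lists, 1 point per gene and 1 colour per list, filled where the rhythm in Ctrl passed the test, with all genes on the left and amplitudes up to 0.85 on the right. The filled points lie below the grey line of equal amplitude, with Per1 farthest to the right among them at 0.75 in Ctrl. They were picked by the test in Ctrl, which favours a high amplitude there, so their place below the line is no evidence of a difference. The open points farthest to the right on the left panel are Pck1 and Tat.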

How the data were processed

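The authors aligned reads with STAR and quantified them with Salmon 1.9.0 against GRCm39, and deposited tables of estimated counts per gene without normalization, which were rounded here. The tested genes had an average of 1 CPM or more of the library total in each of the main groups. The Ctrl and SCNx libraries were then scaled by TMM (edgeR 4.0.16, R 4.3.3), whereas KO levels and ratios used library totals alone. The rhythm model fitted a 24 h curve (cosine and sine) around the mean of each group to 24 libraries, the level model held only the group means, and the window model held means of day, night and other times. The p-values are those of the quasi-likelihood F test in edgeR, adjusted after Benjamini and Hochberg over all tested genes. DESeq2 1.42.0, limma 3.58.1, other filters and scalings, a block of circadian time and leaving out each library served as alternatives, and scripts were tested on simulated data. Each circadian time is 1 mouse, so p-values rest on the fit over 12 mice per group. Depth was 38751162 to 49527614 counts in Ctrl and SCNx. KO libraries were described without a test. The 10 genes are reported in every comparison. Of the lists, up to 5 genes that passed for a rhythm in Ctrl (lowest p first) were named, and up to 2 that passed another test. The genes, lists and tests were chosen with earlier results of these data known. Levels were not compared between genes, since gene lengths were not used.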

Additional observations from a re-analysis of the deposited data

Results flagged for a closer look

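The rhythm of Tsc22d3 differed between Ctrl and SCNx with an adjusted p of 0.00115, and that of Fkbp5 with an adjusted p of 0.0281, by edgeR's quasi-likelihood test of the difference. Among the 4 night libraries of Ctrl, Ddit4 was far below the others at CT20 with 10.6 CPM, and Errfi1 was far above the others at CT16 with 33.5 CPM, by Dixon's criterion. Of 40 groups of 4 libraries examined, 2 were marked so, and chance marks about 1 in 20. The Errfi1 value comes from the library with 1982 CPM of hepatocyte markers.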

How the results depend on the processing

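Of the 10 genes, the number with a rhythm in Ctrl was 4, 3 to 6 under the other settings and 4 to 5 on leaving out single libraries. The number with a rhythm in SCNx was 0, and 1 with DESeq2 and 1 without a filter on low counts (Hsd11b1, adjusted p = 0.0194 and 0.00447). The number whose rhythm differed was 2, but 1 with limma-trend, without Ctrl CT16 and SCNx CT0 together, and with one mean per group and time of day, which was added after seeing the data (Fkbp5, adjusted p = 0.0611, 0.0972 and 0.165), and 1 to 3 on leaving out single libraries. The number called at night in Ctrl was 1, but 0 with limma-trend and 0 with narrower windows (Ddit4, 0.0529 and 0.386), and 0 to 1 on leaving out single libraries. Fkbp5, Tsc22d3 and Klf9 kept their rhythm in Ctrl in 35 of 35 alternatives and Sgk1 in 34, the exception being one mean per time of day (0.0675). No value past a threshold changed direction. The changes of calls were not traced to a cause. Leaving out a library lowers the number of samples, and it added calls in some fits and removed them in others.

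Equal circadian times of Ctrl and SCNx did not pair the samples: the correlation of their deviations ran from -0.44 to 0.33 and was over 0.1 in 5 of 12 pairs. With circadian time as a block, 1 of the 10 genes differed in rhythm, Tsc22d3 (adjusted p = 0.0328), and Fkbp5 did not (0.134).

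Over all tested genes, the number with a rhythm in Ctrl was 1459, but 2223 without Ctrl CT4 and SCNx CT32, 2249 without SCNx CT32 alone, 918 without Ctrl CT44 and 583 with one mean per time of day. The number in SCNx was 0, but 432 with DESeq2, 1384 without a filter and 6 without SCNx CT24. The number that differed was 291, but 589 with DESeq2, 654 without a filter, 504 without Ctrl CT4 and SCNx CT32, 98 with the block, 78 with one mean per time of day, 466 without SCNx CT32, and 163 to 192 without Ctrl CT12, CT20, CT24 or CT44 or SCNx CT12 or CT16. DESeq2 called 14 genes for level against 0, and 3 were called without SCNx CT32. At night in Ctrl 524 genes were called, 295 with narrower windows and 145 to 257 without Ctrl CT8, CT20, CT32 or CT44, and the night-day difference between the groups was called for 7 genes, for 1 with narrower windows and for 2 to 4 without Ctrl CT8 or CT32 or SCNx CT16 or CT20. With 1 mouse per time, the spread between mice of the same time was not measured, and for low genes such as Zbtb16 and Hsd11b1 few counts limit the precision.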
